A study of Mus musculus with 40 samples.

Results

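The data described here are the changes in poly(A) RNA between 3 and 6 hr of lipopolysaccharide (LPS) in bone marrow-derived macrophages (BMDMs) of 4 *Cpeb4*-/- mice, each set against the same change in BMDMs of 4 wildtype (WT) mice. The libraries were chosen by genotype and time point, without use of any measured value: 8 *Cpeb4*-/- and 8 WT libraries out of 40, and 13070 of the 27179 genes in the table, those with a mean level of at least 5 counts on the log2 scale over the 16 libraries. *Cpeb4*-/- mice lack the gene in the whole body. Mice of both genotypes were adult males on a mixed C57BL/6J and 129 background, and all 16 cultures received 10 ng/ml LPS from *E. coli*. Macrophages were grown from femur marrow with L-cell conditioned medium, a source of M-CSF. Each mouse gave a library at 3 hr and a library at 6 hr, so every change was taken within a mouse. Batch 1 held *Cpeb4*-/- mice 3 and 62 and WT mice 25 and 88, and batch 2 held *Cpeb4*-/- mice 2 and 55 and WT mice 69 and 87. No cage held both genotypes, so cage and genotype cannot be told apart. *Cpeb4*-/- mice 3 and 2 had the same cage number, as did WT mice 88 and 87, so not all mice of a genotype came from separate cages.

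LPS is recognised by Toll-like receptor 4, which switches on a first wave of cytokine and immediate early transcripts and then a wave of interferon-stimulated genes. The first wave is brought down by inhibitors that the same signal induces, such as the phosphatase DUSP1 and the SOCS proteins, and by RNA-binding proteins such as TTP, which removes mRNAs with AU-rich elements. CPEB4 binds cytoplasmic polyadenylation elements (CPEs) in 3′ untranslated regions (3′UTRs) and acts on the poly(A) tail, the translation and the stability of the mRNAs that carry them.

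Values are rlog levels, a log2 scale made by the authors from read counts, corrected for library size and shrunken for weakly expressed genes, so that differences understate the fold changes of low genes. Depth cannot be read from this table. A change is the 6 hr level minus the 3 hr level, with 4 mice per genotype. It is given ± the SE of a limma fit with the mouse as a block. The spread behind this SE is estimated from both genotypes together and drawn towards that of genes of similar level. It is therefore not the spread of the mice of 1 genotype. A call is an adjusted p under 0.05 in this fit, adjusted over the 13070 genes. Libraries of the same group correlated at 0.9967 or more, except for WT at 3 hr, where the lowest pair, mice 88 and 87, correlated at 0.9924 and the median SD between mice was 0.137, against 0.082 to 0.096 in the other groups. All 8 macrophage markers were above the filter in each of the 16 libraries, with the surface protein *Adgre1* between 15.75 and 16.38. At 6 hr *Lyz2*, the most abundant of the 8, was at 17.78 to 18.20 in *Cpeb4*-/- and 18.23 to 18.46 in WT. *Csf1r* (15.09 to 15.24 against 15.38 to 15.43) and *Cd68* (14.27 to 14.35 against 14.51 to 14.59) were also lower without overlap. So were *Fcgr1* (15.10 to 15.28 against 15.42 to 15.51) and *Spi1* (14.68 to 14.81 against 14.87 to 15.02), while *Adgre1*, *Mertk* and *Itgam* overlapped. At 3 hr *Lyz2* was lower without overlap (17.80 to 18.15 in *Cpeb4*-/- against 18.48 to 18.64 in WT), and the other markers of the list overlapped. The summed level of the 8 markers lay at 18.67 to 19.02 in *Cpeb4*-/- and at 19.10 to 19.22 in WT libraries, on a log2 scale. Of the markers of other cells, 4 of 8 for neutrophils, 1 of 5 for B cells, 1 of 6 for T and NK cells, 3 of 5 for dendritic cells, 3 of 6 for stromal and endothelial cells and none of 5 for mast or erythroid cells passed the filter, and *Pax5*, *Ly6g*, *Elane* and *Mpo* were at 0.29 or less in each library. Above the filter were *Cd79b* of B cells (4.65 to 6.06), *Lck* of T and NK cells (7.47 to 8.51) and *Xcr1* of dendritic cells (6.08 to 7.06). *Zbtb46* and *Clec9a* were the other dendritic cell markers that passed, and *Cd79b* fell in both genotypes (-0.39 in *Cpeb4*-/- and -0.96 in WT). The neutrophil markers above the filter were *S100a8*, *S100a9*, *Camp* and *Ngp*. *S100a8* was at 5.78 to 6.11 and then 7.12 to 7.38 in *Cpeb4*-/- and at 5.65 to 6.22 and then 7.09 to 7.57 in WT, *S100a9* lay between 4.32 and 5.90, and the summed log2 level of the list went from 6.83 to 7.32 at 3 hr to 7.66 to 7.97 at 6 hr in *Cpeb4*-/- and from 6.79 to 7.34 to 7.56 to 8.06 in WT. Among the stromal and endothelial markers, whose summed log2 level was 10.38 to 10.53 at 3 hr and 11.20 to 11.66 at 6 hr in *Cpeb4*-/- and 9.57 to 10.00 and then 10.90 to 11.26 in WT, the collagens were at 3.06 or less and the receptors *Kdr* and *Pdgfrb* made up the level. The part of these marker levels in the results below was not tested, and in bulk RNA fewer cells of a type and less RNA per cell cannot be told apart.

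*Cpeb4* itself (chromosome 11, 31870104 to 31935635, mm10) was at 9.47, 9.02, 9.15 and 9.18 at 3 hr and at 9.45, 8.74, 8.87 and 9.66 at 6 hr in *Cpeb4*-/- mice 3, 62, 2 and 55. In WT mice 25, 88, 69 and 87 it was at 9.26, 10.88, 10.06 and 8.82 at 3 hr and at 10.42, 10.62, 10.67 and 10.09 at 6 hr. The genotypes overlapped at 3 hr and were apart at 6 hr, with every *Cpeb4*-/- library below every WT library. In the limma fit the WT change, 0.69 ± 0.195, was called as a rise (adjusted p = 0.00639). The WT mice did not agree, since mice 25, 69 and 87 rose and mouse 88 fell. The change in *Cpeb4*-/- was -0.03 (adjusted p = 0.907). The difference between these changes, -0.72 ± 0.276, did not pass the test (adjusted p = 0.195). The level counts reads over the whole gene, and which of its exons the knockout allele removes was not analysed here.

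From 3 to 6 hr *Cpeb4*-/- macrophages raised 4356 genes (33.3% of those tested) and lowered 4330 (33.1%), of which 480 rose and 802 fell by more than 1 on the log2 scale. In WT, 4787 genes rose (36.6%) and 4417 fell (33.8%). The median size of a called change in *Cpeb4*-/- was 0.46, and the 6 hr libraries did not overlap the 3 hr libraries for 7771 of the 8686 called genes. The largest rise was that of *Csf3*, which encodes the granulocyte growth factor G-CSF. *Csf3* stood at 5.41, 5.36, 5.39 and 5.37 at 3 hr and at 9.65, 9.61, 9.76 and 9.60 at 6 hr in *Cpeb4*-/- mice 3, 62, 2 and 55, a rise of 4.27 ± 0.097 (adjusted p = 2.78e-12), against 4.01 in WT. The next largest rises were those of the chloride intracellular channel family gene *Clic5* (3.81), the haemoglobin-binding acute phase protein *Hp* (3.70), the WAP domain gene *Wfdc21* (3.41), the Schlafen gene *Slfn4* (3.40), the surface protease *Fap* (3.15), *Ms4a4c* (2.83), the acute phase protein *Saa3* (2.73), the prokineticin receptor *Prokr1* (2.72) and the kinase *Plk3* (2.71). None of these 10 genes passed the limma test for a difference between the genotypes, and 3 had an unadjusted p under 0.05.

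The largest fall was that of *Rnd1*, which encodes a small GTP-binding protein. It stood at 12.84, 12.75, 12.80 and 12.80 at 3 hr and at 9.61, 9.58, 9.57 and 9.48 at 6 hr in the same mice. The fall measured -3.24 ± 0.06 (adjusted p = 8.16e-13) and was -3.17 in WT. Next among the 10 largest falls were the small GTPase *Rhof* (-2.96), the GTPase-activating protein *Arhgap18* (-2.61), the Ras exchange factor *Rasgrp3* (-2.61), the EGF receptor inhibitor *Errfi1* (-2.62) and the SOCS family member *Cish* (-3.11). The others were *Nav2* (-3.19), *Phldb1* (-3.06), the sialyltransferase *St6gal1* (-2.91) and *Tmem200b* (-2.68). *Nav2* fell by less in WT (-2.72), and this difference passed the test (-0.47, adjusted p = 0.0285), a call lost without 6 of the 8 mice at adjusted p-values up to 0.12. Of the other 9 falls none was called for a difference in limma, and of the 10 together 5 had an unadjusted p under 0.05.

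Secreted signals divided into groups that rose and fell. The counts of each list stand beside 33.3% rises and 33.1% falls over all genes tested. Of 20 inflammatory cytokines, 9 rose and 11 fell in *Cpeb4*-/- macrophages. *Csf3*, the interleukin-1 receptor antagonist *Il1rn* (2.03) and *Il18* (1.93) rose most, and *Csf2*, the growth factor GM-CSF (-2.59), *Il23a* (-1.64), *Lif* (-1.64) and *Ifnb1* (-1.52) fell most. *Tnf* fell by 0.60 and *Il6* rose by 0.76. Of 18 chemokines, 7 rose and 4 fell, and 6 and 5 after quantile normalization. The monocyte attractants *Ccl7* (1.43) and *Ccl2* (0.75) and the T cell attractants *Ccl5* (1.29) and *Cxcl9* (0.92) rose, while the neutrophil attractants *Cxcl1* (-2.19), *Cxcl2* (-0.94) and *Cxcl3* (-0.66) fell. Effector enzymes and secreted defence proteins rose almost throughout, 19 of 20, with a median change of 0.93. *Saa3*, the iron-sequestering *Lcn2* (2.54), the haem-degrading *Hmox1* (2.09), the prostaglandin E synthase *Ptges* (2.08) and the nitric oxide synthase *Nos2* (1.72) were among them, and the polyamine enzyme *Odc1* fell by 1.14.

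Receptors moved both ways, 15 of 28 up and 10 down, against 33.3% and 33.1% of all genes. The formyl peptide receptor *Fpr1* (2.33) and the scavenger receptor *Marco* (2.15) rose most, the nucleic acid receptors *Tlr3* (1.16), *Tlr8* (0.99) and *Tlr7* (0.78) also rose, and the interferon gamma receptor chain *Ifngr1* (-1.10) and the mannose receptor *Mrc1* (-0.88) fell. Of 24 feedback regulators of LPS signalling 3 rose and 12 fell (17 after quantile normalization), with *Irak3*, an inhibitory IRAK family protein, rising by 1.36 and *Cish* and *Socs2* (-1.22) falling most. Of 24 immediate early genes 11 rose and 9 fell, beside the same shares of all genes. *Egr1* (1.50) and *Fos* (1.24) rose, and the nuclear receptor *Nr4a3* (-2.28) and *Klf2* (-1.12) fell.

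The interferon programme rose. Of 30 interferon-stimulated genes 26 rose and 1 fell (*Mx2*, -0.81), with a median of 0.86, and of 14 GBP and IRG GTPases, which attack the vacuoles of intracellular microbes, 12 rose and 1 fell, with a median of 0.90. *Ifi44* (1.94), *Isg20* (1.88) and *Gbp6* (1.78) lay at the top, and *Irf7*, the transcription factor that sustains interferon production, rose by 1.44. *Tgtp1* and *Tgtp2*, like other members of these families, are near-identical copies whose reads may be split, and their values are uncertain. Antigen presentation genes rose in 13 of 20 cases and fell in 4. The inhibitory ligand *Pdcd1lg2* (1.98) and the class I transactivator *Nlrc5* (1.18) rose and the class II transactivator *Ciita* fell by 1.87.

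Metabolic lists rose in part. Of 20 glycolysis genes 16 rose and 2 fell, among them the lactate exporter *Slc16a3* (1.22), the glucose transporter *Slc2a1* (1.18) and the phosphofructokinase subunit *Pfkl* (1.15). Of 20 hypoxia-induced genes 11 rose and 5 fell, with *Ankrd37* (1.91) and the mitophagy receptor *Bnip3* (1.55) at the top and the vasodilator peptide *Adm* (-1.62) at the bottom. Of 19 cholesterol synthesis genes 17 rose and none fell in the limma test, also at an unadjusted p under 0.05 (0 of 19), with a median of 0.69, led by *Lss*, *Mvd* and *Fdft1* (1.27, 1.09 and 0.99). Of 27 oxidative phosphorylation genes 7 rose and 3 fell, with a median of 0.03. After quantile normalization the balance of this list turned, with 3 rises, 10 falls and a median of -0.09.

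Growth lists fell. Of 26 cell cycle genes 25 fell, with a median of -1.24, and the other one, *Ccne1*, had a change of -0.04. *Rrm2*, a subunit of ribonucleotide reductase (-2.28), *Mcm7* of the replicative helicase (-1.90) and *Ccna2*, cyclin A2 (-1.89), fell most. Of 22 ribosome biogenesis genes 18 fell and 1 rose, with a median of -0.39, led by the pseudouridine synthase *Dkc1* (-1.10). Of 20 unfolded protein and integrated stress response genes 11 rose and 2 fell, of 24 lysosome genes 9 rose and 11 fell, and of 32 poly(A) and mRNA decay factors 14 rose and 7 fell, where 33.3% of all genes rose and 33.1% fell. The poly(A) and decay factors were even after quantile normalization, at 11 rises and 10 falls. Within this list the *Cpeb4* relatives *Cpeb2* (0.86) and *Cpeb3* (0.80) rose and *Cpeb1* fell by 1.06, while *Zfp36*, which encodes TTP, rose by 0.30 and its paralog *Zfp36l1* fell by 0.84.

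**Figure D1:**
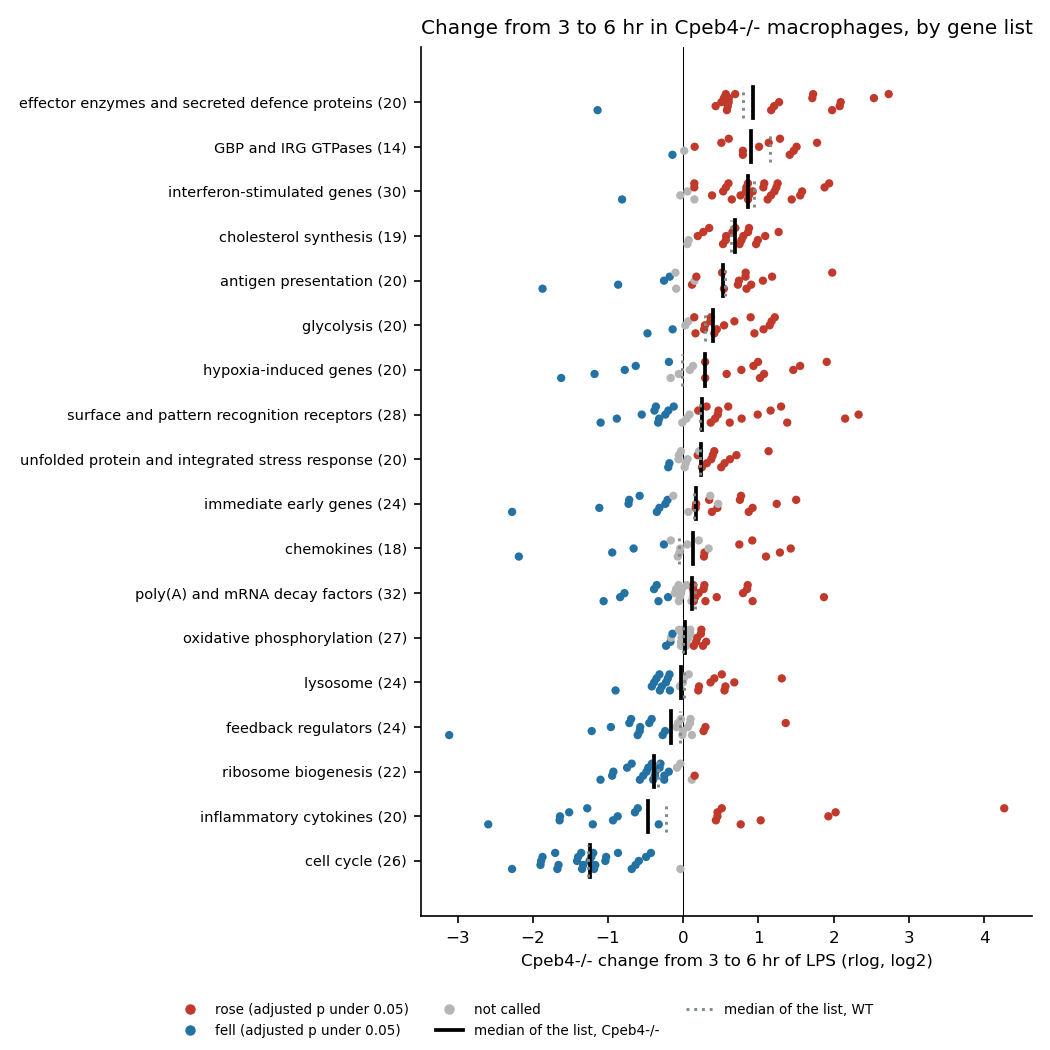
Each point is the change of 1 gene from 3 to 6 hr of LPS in *Cpeb4*-/- macrophages (x axis, rlog, log2), by gene list, with the number of genes tested in parentheses; colours mark genes called at an adjusted p under 0.05, solid bars the *Cpeb4*-/- median and dotted bars the WT median. The cell cycle list lies to the left of 0, with a median of -1.24, and the effector and interferon lists lie to the right, with medians of 0.93 and 0.86.

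To ask which of these changes depended on the genotype, the WT change was subtracted from the *Cpeb4*-/- change. The changes of the 2 genotypes ran closely together, with a correlation of 0.946 across the 13070 genes, which are not independent replicates. Of the genes called in both genotypes 7617 moved in the same direction, 3892 up and 3725 down, and 33 moved in opposite directions. The difference of changes passed the test for 186 genes, 69 with the *Cpeb4*-/- change above the WT change (0.528% of those tested) and 117 with it below (0.895%). The called differences measured from 0.23 to 1.18, with a median of 0.41. Fitted with 2 mice per genotype, batch 1 alone gave 0 calls in limma (237 genes above and 495 below WT at an unadjusted p under 0.05), and batch 2 alone gave 3 above and 6 below. Without any test, all 4 *Cpeb4*-/- changes were above or all were below the 4 WT changes for 1276 genes (9.76%), and 182 of the 186 called genes were among these.

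The number of called differences depended on single mice. It was 32 without *Cpeb4*-/- mouse 3 (19 above and 13 below), 5 without mouse 62 (2 and 3), 18 without mouse 2 (11 and 7), and 282 without mouse 55 (72 and 210). It was 66 without WT mouse 25 (33 and 33), 1266 without mouse 88 (479 and 787), 31 without mouse 69 (17 and 14) and 90 without mouse 87 (41 and 49). The 186 genes were among the 1266 called without WT mouse 88. The directions were near equal in number after quantile normalization (82 above and 83 below) and with the mouse as a random effect (86 and 84). Of the 36 genes named here with a called difference, 1, *Cxcl3*, was called without each mouse in turn, and the other 35 were not called without *Cpeb4*-/- mouse 62, at adjusted p-values up to 0.18.

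**Figure D2:**
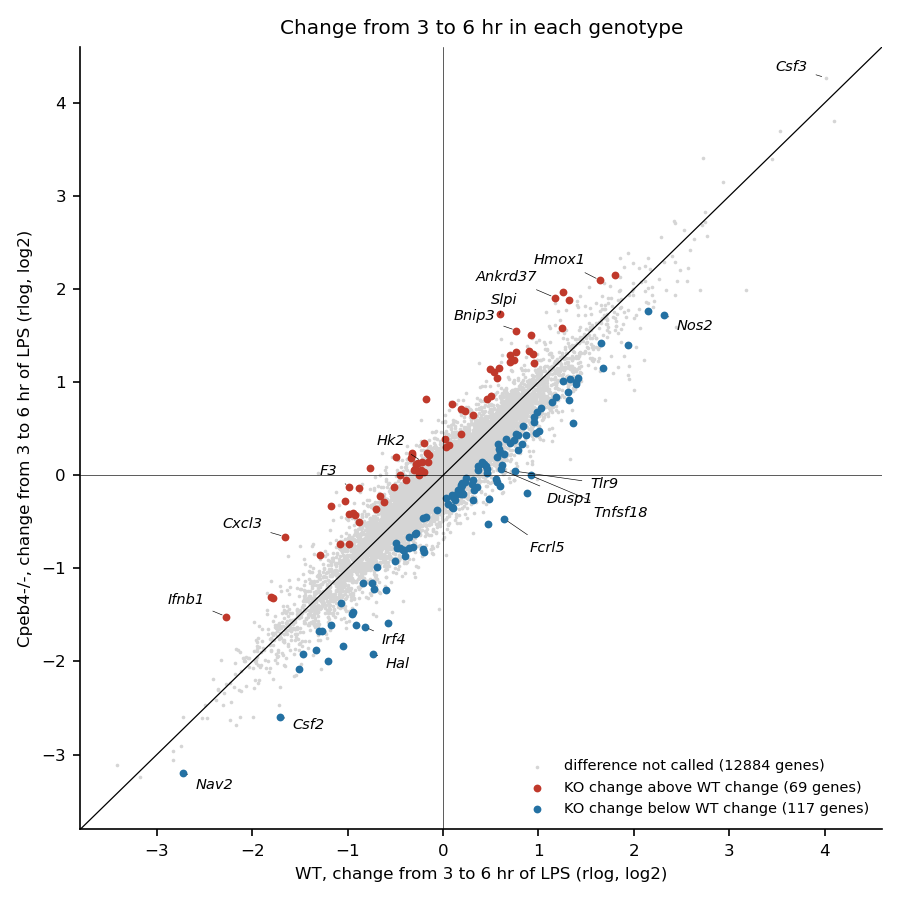
Each point is a gene, with its change from 3 to 6 hr in WT on the x axis and in *Cpeb4*-/- on the y axis (both rlog, log2), and the diagonal marks equal changes. Red points are the 69 genes with a called difference above the diagonal and blue points the 117 below it; most genes, *Csf3* among them, lie near the line.

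The differing genes fell into a few patterns. Of the 69 genes with the higher change in *Cpeb4*-/-, 26 rose and 17 fell in both genotypes, 12 fell in WT and were not called in *Cpeb4*-/-, 9 rose in *Cpeb4*-/- and fell in WT, and 5 rose in *Cpeb4*-/- and were not called in WT. Of the 117 with the lower change, 38 rose and 38 fell in both, 19 rose in WT and were not called in *Cpeb4*-/-, 16 fell in *Cpeb4*-/- and rose in WT, and 6 fell in *Cpeb4*-/- and were not called in WT. By construction the difference of changes is the genotype gap at 6 hr minus the gap at 3 hr, and both times contributed. At 6 hr 67 of the 69 had a higher mean in *Cpeb4*-/-, while at 3 hr 47 of them had a lower mean. At 6 hr 110 of the 117 had a lower mean in *Cpeb4*-/-, while at 3 hr 90 of them had a higher mean.

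The most positive difference was that of *Slpi* (chromosome 2, 164354070 to 164356507), which encodes secretory leukocyte protease inhibitor, an antagonist of neutrophil elastase. In *Cpeb4*-/- mice 3, 62, 2 and 55 it was at 6.33, 6.07, 6.03 and 6.41 at 3 hr and at 7.85, 8.11, 8.10 and 7.68 at 6 hr. In WT mice 25, 88, 69 and 87 it was at 5.87, 5.88, 5.81 and 6.10 and then at 6.49, 6.56, 6.39 and 6.60. The genotypes overlapped at 3 hr and were well apart at 6 hr, since *Slpi* rose by 1.73 in *Cpeb4*-/- and by 0.59 in WT. This difference of 1.14 ± 0.168 passed the test (adjusted p = 0.0118). As for each gene named here whose 4 *Cpeb4*-/- and 4 WT changes do not overlap, the two-sided exact permutation test gave p = 0.029, the smallest that 4 against 4 mice allow. The absence of overlap fixes this value, which adds no support to genes chosen for it. The *Slpi* call was lost without *Cpeb4*-/- mouse 62 (adjusted p = 0.06) and without mouse 2 (0.056).

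*Cxcl3* (chromosome 5, 90786101 to 90788093), a neutrophil-attracting chemokine, fell in both genotypes but less in *Cpeb4*-/-. It went from 12.79, 12.56, 12.48 and 12.70 to 12.45, 11.68, 12.02 and 11.73 in the *Cpeb4*-/- mice, a change of -0.66. In the WT mice it went from 11.75, 11.66, 12.16 and 11.74 to 9.95, 9.91, 10.55 and 10.27, a change of -1.66. All *Cpeb4*-/- libraries were above all WT libraries at both times, and the gap widened by 1.00 ± 0.128 (adjusted p = 0.00957). The difference lay between 0.89 and 1.10 when each mouse was left out. In limma the call was lost with no replicate block (adjusted p = 0.07) and without the trend in eBayes (0.072). It was also lost without the expression filter (0.084) and in batch 1 alone (0.18). The neighbours of *Cxcl3* in function, *Cxcl1* and *Cxcl2*, had differences of 0.23 and -0.05, and neither was called. For 15 of the 18 chemokines the *Cpeb4*-/- change was the higher of the pair, against 44.3% of all genes, and *Cxcl3* was the only one called.

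*Ifnb1*, the interferon beta gene, had a lower starting level in *Cpeb4*-/-. It went from 6.96, 6.83, 6.90 and 7.32 at 3 hr to 5.57, 5.05, 5.64 and 5.68 at 6 hr in the *Cpeb4*-/- mice. In the WT mice it went from 7.65, 7.53, 7.48 and 7.99 to 5.11, 5.59, 5.08 and 5.78. The genotypes were apart at 3 hr and overlapped at 6 hr, and the fall was smaller in *Cpeb4*-/- (difference 0.76 ± 0.157, adjusted p = 0.0404). Its call was lost without 6 of the 8 mice, at adjusted p-values up to 0.15.

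The other genes among the 10 most positive differences were *F3*, *Bambi*, *Fam234b*, *Tbc1d30*, *Gpr155*, *Bnip3* and *Ankrd37*, between 0.74 and 0.86. *F3*, the initiator of blood coagulation known as tissue factor, fell by 0.98 in WT and had a change of -0.13 in *Cpeb4*-/- (difference 0.86, adjusted p = 0.0118). *Bambi*, a pseudoreceptor that blocks TGF-beta family signalling, fell by 1.17 in WT and by 0.33 in *Cpeb4*-/-. *F3* was higher in *Cpeb4*-/- at both times, without overlap, and *Bambi* was lower at 3 hr and overlapped at 6 hr. Without *Cpeb4*-/- mouse 62 their adjusted p-values were 0.06 and 0.065, and without mouse 2 that of *F3* was 0.059.

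The growth factor gene *Csf2* led the differences in the other direction among the cytokines. It went from 7.49, 7.14, 7.11 and 7.35 to 5.10, 4.46, 4.44 and 4.73 in the *Cpeb4*-/- mice and from 6.40, 6.16, 6.29 and 6.80 to 4.19, 4.76, 4.96 and 4.91 in the WT mice. All *Cpeb4*-/- libraries were above all WT libraries at 3 hr and the genotypes overlapped at 6 hr, so that *Csf2* fell by 2.59 and 1.71 (difference -0.89 ± 0.189, adjusted p = 0.041). *Irf4*, a transcription factor of the interferon regulatory family, had the same course, with all *Cpeb4*-/- libraries higher at 3 hr, overlap at 6 hr and falls of 1.63 and 0.82 (difference -0.81, adjusted p = 0.0231). Their calls were lost without 6 and 5 of the 8 mice.

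The most negative difference, that of the histidine-degrading enzyme *Hal* (-1.18 ± 0.266, adjusted p = 0.0499), rested on unlike WT mice. At 3 hr *Hal* was at 7.92 and 7.61 in WT mice 25 and 87 but at 5.32 and 5.27 in mice 88 and 69, against 8.48 to 9.31 in *Cpeb4*-/-. Changes of the WT mice ran from -1.58 to -0.09 and those of the *Cpeb4*-/- mice from -2.04 to -1.82. Other genes rose in WT while their *Cpeb4*-/- change was near 0 or negative. *Tnfsf18*, the ligand of the costimulatory receptor GITR, rose by 0.92 in WT and changed by 0.00 in *Cpeb4*-/- (difference -0.92, adjusted p = 0.0436), and the Fc receptor-like gene *Fcrl5* rose by 0.64 in WT and fell by 0.47 in *Cpeb4*-/- (-1.11, adjusted p = 0.0177). The remaining genes of the 10 most negative were *Gprc5b*, *Siglecg*, *Fhod3*, *Bahcc1* and *Zbtb32*, between -0.78 and -1.01. Of these named genes *Bahcc1* lost its call only without *Cpeb4*-/- mouse 62 (adjusted p = 0.06), *Hal* and *Tnfsf18* lost theirs without 6 mice and *Fcrl5* without 4, at adjusted p-values up to 0.17.

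**Figure D3:**
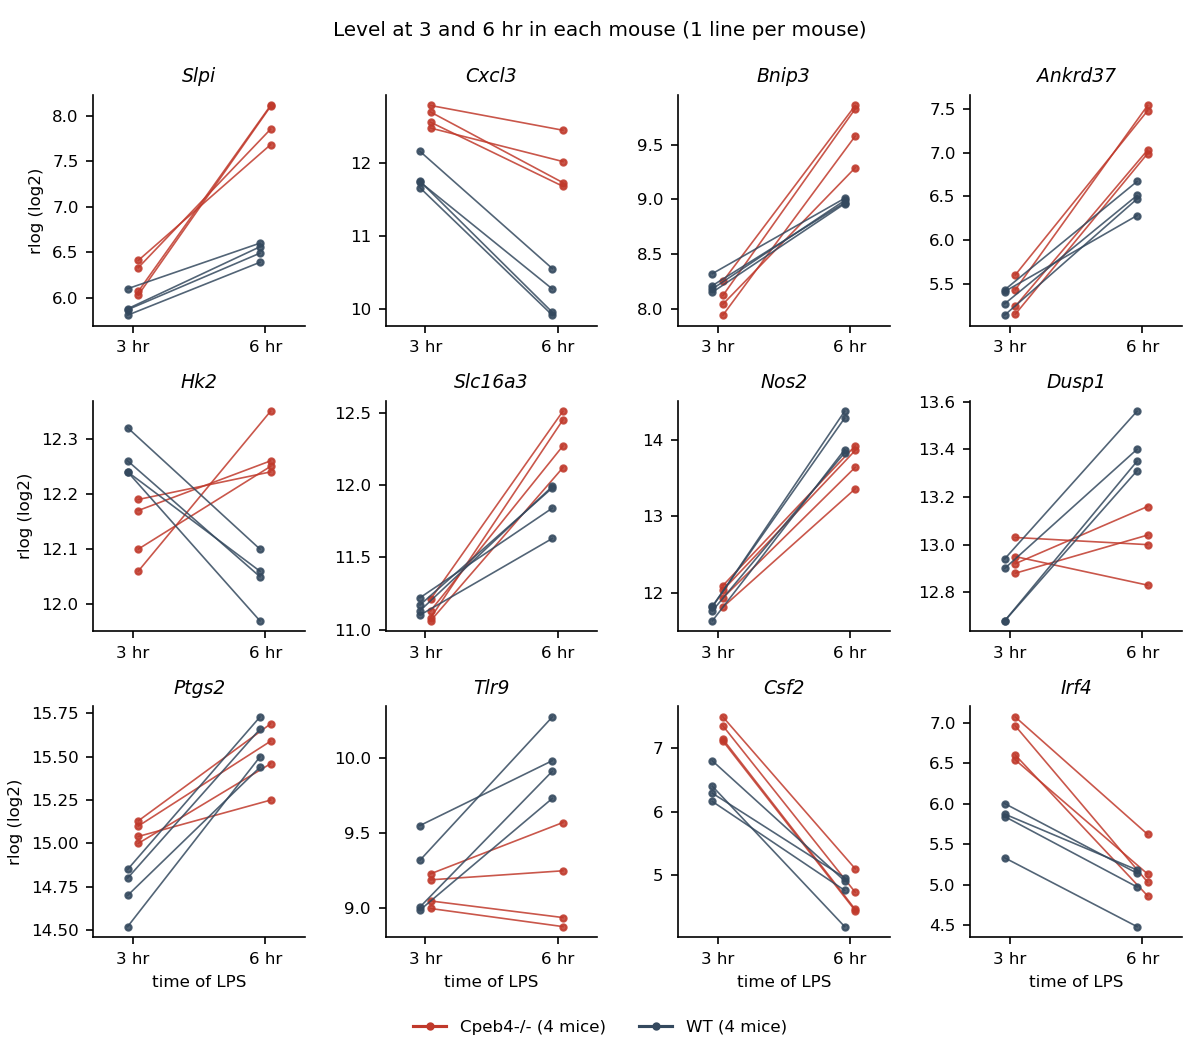
Levels (y axis, rlog, log2) of 12 genes at 3 and 6 hr of LPS, with 1 line per mouse for 4 *Cpeb4*-/- (red) and 4 WT (blue) mice. *Slpi*, *Bnip3*, *Ankrd37* and *Slc16a3* rise more steeply in red, *Cxcl3* stays higher, and *Dusp1* and *Tlr9* rise in blue while the red lines are level on average.

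Genes of the hypoxia response are switched on by HIF1, a transcription factor that binds the letters ACGTG in promoters and enhancers, and many encode glycolytic enzymes. The promoters of 4 such genes with a called difference are shown because each holds ACGTG, on either strand and partly inside the palindrome CACGTG, in the 300 bases around the gene start (250 before and 50 after, RefSeq, GRCm38/mm10), a choice made after their values were seen. The stretches are 5′ to 3′ on the strand of the gene, with ACGTG or its reverse complement, or CACGTG, in capitals.
*Bnip3*, chr7:138909596-138909625, minus strand: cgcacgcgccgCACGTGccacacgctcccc
*Ankrd37*, chr8:45999839-45999868, minus strand: cagtgtttgggtACGTGaggccgcagcggg
*Hk2*, chr6:82774489-82774518, minus strand: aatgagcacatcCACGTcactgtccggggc
*Slc16a3*, chr11:120949041-120949070, plus strand: cgtgcgcgggggACGTGccgcgcgacggat
These letters are common, since 29.1% of the 9987 promoters matched to tested genes hold them, and a match is no evidence of binding. *Ndrg1*, a gene of the hypoxia list with a called difference in the other direction, had no promoter entry and was not searched.

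*Bnip3*, which tags mitochondria for removal, went from 8.04, 8.25, 8.12 and 7.94 to 9.29, 9.86, 9.83 and 9.58 in the *Cpeb4*-/- mice and from 8.18, 8.21, 8.15 and 8.32 to 8.99, 8.97, 8.96 and 9.01 in the WT mice. The genotypes overlapped at 3 hr and were apart at 6 hr. *Bnip3* rose by 1.55 in *Cpeb4*-/- and by 0.77 in WT, and the difference of 0.79 ± 0.098 had the lowest adjusted p of the named genes (0.00838, and 0.05 without mouse 62). *Ankrd37*, a hypoxia-induced ankyrin repeat gene, went from 5.15, 5.43, 5.60 and 5.24 to 6.99, 7.54, 7.48 and 7.03 in *Cpeb4*-/- and from 5.43, 5.27, 5.14 and 5.41 to 6.67, 6.51, 6.47 and 6.28 in WT. The genotypes again overlapped at 3 hr and were apart at 6 hr, with a difference of 0.74 ± 0.136 (adjusted p = 0.0261), a call lost without 6 of the 8 mice at adjusted p-values up to 0.11. *Ndrg1*, a stress-induced gene of the same list, moved the other way. It fell by 0.78 in *Cpeb4*-/- and by 0.35 in WT, to 11.33, 11.49, 11.48 and 11.50 against 11.84, 11.96, 11.87 and 12.06 at 6 hr (difference -0.43 ± 0.059, adjusted p = 0.0103, and 0.06 without mouse 62).

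In the whole hypoxia list, 19 of 20 genes had the higher change in *Cpeb4*-/-, against 44.3% of all genes tested, and *Bnip3* and *Ankrd37* were called above WT and *Ndrg1* below. The median difference was 0.16, and over all genes it was -0.02. The median change of the list was between 0.21 and 0.42 in the 4 *Cpeb4*-/- mice and between -0.14 and 0.14 in the 4 WT mice, so the mice did not overlap. The oxygen sensors *Egln3* (0.58 and 0.02) and *Egln1* (0.29 and -0.01) and the mitochondrial *Higd1a* (0.29 and -0.03) had called rises in *Cpeb4*-/- and changes near 0 in WT, but their differences were not called. *Hif1a* rose in both, by 0.77 and 0.63. From the RNA sequencing of these samples the study had reported higher hypoxia and glycolysis signatures in *Cpeb4*-/-. The hypoxia list, and the glycolysis list below, are therefore no independent evidence.

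Glycolysis genes had the higher change in *Cpeb4*-/- in 15 of 20 cases, against 44.3% of all genes, with a median difference of 0.15. Of the 20, 2 were called above WT, as were 0.528% of all genes. *Slc16a3*, the lactate exporter MCT4, went from 11.06, 11.21, 11.08 and 11.13 to 12.12, 12.51, 12.45 and 12.27 in *Cpeb4*-/- and from 11.17, 11.10, 11.22 and 11.13 to 11.98, 11.63, 11.84 and 11.99 in WT. *Hk2*, the first enzyme of glycolysis, went from 12.06, 12.19, 12.10 and 12.17 to 12.35, 12.24, 12.25 and 12.26 in *Cpeb4*-/- and from 12.24, 12.24, 12.32 and 12.26 to 11.97, 12.06, 12.10 and 12.05 in WT. *Hk2* crossed over: all *Cpeb4*-/- libraries were below all WT libraries at 3 hr and above them at 6 hr. The differences were 0.51 ± 0.088 for *Slc16a3* (adjusted p = 0.0179) and 0.37 ± 0.06 for *Hk2* (adjusted p = 0.0177). Both calls were lost without *Cpeb4*-/- mouse 62 (0.093 and 0.06), mouse 2 (0.083 and 0.074) or WT mouse 69 (0.065 and 0.059), and that of *Hk2* also without *Cpeb4*-/- mouse 3 (0.055). Of the other enzymes *Eno1* (0.29 and 0.04), *Tpi1* (0.37 and 0.10) and *Aldoa* (0.16 and 0.04) rose in *Cpeb4*-/- and were not called in WT, and *Pfkfb3* (1.07 and 1.37) and *Hk3* (0.95 and 1.18) rose in both. Of the oxidative phosphorylation genes 21 of 27 had the higher change in *Cpeb4*-/-, against 44.3% of all genes. After quantile normalization 23 of the 27 did, against 6541 of all 13070 genes. The differences of these 27 genes were small, with a median of 0.07. None passed the limma test or had an unadjusted p under 0.05, which 18.1% of all genes had. Of the cholesterol genes 17 of 19 had the higher change in *Cpeb4*-/-, against 44.3% of all genes. None of the 19 was called in limma and 6 had an unadjusted p under 0.05, against 18.1% of all genes.

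Macrophage effector genes differed in both directions. *Hmox1*, haem oxygenase, went from 13.28, 13.50, 13.46 and 13.29 to 15.26, 15.58, 15.61 and 15.46 in *Cpeb4*-/- and from 13.42, 13.57, 13.80 and 13.51 to 15.13, 15.10, 15.37 and 15.27 in WT. Levels overlapped at both times but the changes, 1.98 to 2.17 and 1.53 to 1.76, did not (difference 0.45 ± 0.068, adjusted p = 0.0119). *Nos2*, inducible nitric oxide synthase, went from 12.04, 11.82, 11.94 and 12.10 to 13.86, 13.36, 13.64 and 13.92 in *Cpeb4*-/- and from 11.77, 11.82, 11.83 and 11.64 to 13.83, 14.37, 14.28 and 13.87 in WT. *Nos2* rose by 1.72 in *Cpeb4*-/- and by 2.32 in WT, a difference of -0.60 ± 0.10 (adjusted p = 0.0177), and its levels too overlapped at both times. *Arg1*, arginase 1, which uses the same substrate, rose by 1.21 in *Cpeb4*-/- and had a change of 0.38 in WT that was not called, nor was the difference. The calls of *Hmox1* and *Nos2* were lost without *Cpeb4*-/- mouse 62 (0.06 and 0.089) and mouse 2 (0.059 and 0.079), and that of *Nos2* without WT mouse 69 (0.059).

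*Tlr9*, the endosomal receptor for unmethylated DNA, rose by 0.76 in WT and had a change of 0.04 in *Cpeb4*-/-. It was at 9.19, 9.05, 9.00 and 9.23 and then 9.25, 8.94, 8.88 and 9.57 in *Cpeb4*-/-, and at 9.01, 9.55, 9.32 and 8.99 and then 9.91, 9.98, 10.27 and 9.73 in WT. The genotypes overlapped at 3 hr and were apart at 6 hr (difference -0.71 ± 0.126, adjusted p = 0.0213), and 5 of 8 mice, left out, ended the call, at adjusted p-values up to 0.10. *Marco* and *Tlr2*, the receptor for bacterial lipoproteins, differed in the other direction, by 0.36 and 0.34 (adjusted p = 0.0369 and 0.041). The other endosomal receptors *Tlr3* and *Tlr8* rose in both genotypes, with differences of -0.26 and -0.30 that were not called.

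Feedback regulators had the lower change in *Cpeb4*-/- in 19 of 24 cases, against 55.7% of all genes, and the median difference was -0.14. After quantile normalization 6 of 24 had the higher change, against 6541 of all 13070 genes, and the median of the list was -0.09. The difference was called for 3, *Dusp1*, *Bcl3* and *Sbno2*, all below WT, as were 0.895% of all genes. Their median change was -0.21 to -0.16 in the 4 *Cpeb4*-/- mice and -0.07 to -0.03 in the 4 WT mice. CPEs, read as TTTTAT or TTTTAAT on the sense strand, occur in the 3′UTR of 61.8% of the 11930 tested genes with an annotated 3′UTR. The study counted further CPE variants, a G-containing one among them, so this reading is narrower. Stretches of 3 genes that the study discusses are shown because they hold a CPE, in capitals together with the polyadenylation signal AATAAA where it falls within the same 30 bases (GENCODE M21, GRCm38/mm10, 5′ to 3′ on the strand of the gene).
*Dusp1*, chr17:26505604-26505633, minus strand: gactttTTTTATacaacagAATAAAttatg
*Txnip*, chr3:96561842-96561871, plus strand: aaagttTTTTAATgacaaaAATAAAtgttc
*Ptgs2*, chr1:150108159-150108188, plus strand: atgcttgtttatTTTTATacttatttaaga
*Dusp1* has 1 such motif in 690 bases of 3′UTR, *Txnip* 2 in 1354 and *Ptgs2* 4 in 2445. Among other genes with a called difference, *Csf2*, *Slpi* and *Tlr9* hold none in 317, 245 and 273 bases. *Nos2*, *Cxcl3*, *Bnip3*, *Hmox1*, *F3* and *Irf4* hold at least 1.

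*Dusp1*, the phosphatase that inactivates p38 and JNK kinases, was at 12.88, 13.03, 12.95 and 12.92 and then 13.04, 13.00, 12.83 and 13.16 in *Cpeb4*-/-. In WT it was at 12.68, 12.90, 12.94 and 12.68 and then 13.31, 13.40, 13.56 and 13.35. The genotypes overlapped at 3 hr and were apart at 6 hr. *Dusp1* rose by 0.61 in WT and had a change of 0.06 in *Cpeb4*-/- (adjusted p = 0.339, and -0.12 after quantile normalization), a difference of -0.54 ± 0.079 (adjusted p = 0.0118). The difference lay between -0.60 and -0.48 without each mouse and was not called without *Cpeb4*-/- mouse 62 (adjusted p = 0.06). The others were smaller, with *Bcl3*, an atypical inhibitor of NF-kB, at -0.27 (adjusted p = 0.0285), and *Sbno2*, a corepressor induced by IL10, at -0.27 (adjusted p = 0.0469, and not called after quantile normalization). Among the regulators not called for a difference were *Zfp36* (-0.28), *Socs3* (-0.29), *Tnfaip3* (-0.19) and *Socs1* (0.47).

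*Ptgs2*, cyclooxygenase 2, was at 15.13, 15.04, 15.00 and 15.10 and then 15.69, 15.25, 15.46 and 15.59 in *Cpeb4*-/-, and at 14.70, 14.80, 14.85 and 14.52 and then 15.44, 15.66, 15.73 and 15.50 in WT. All *Cpeb4*-/- libraries were higher at 3 hr and the genotypes overlapped at 6 hr, a difference of -0.44 ± 0.08 (adjusted p = 0.024). *Txnip*, an inhibitor of thioredoxin, was at 11.94, 11.85, 11.96 and 11.95 and then 12.30, 12.38, 12.41 and 12.37 in *Cpeb4*-/-, and at 12.06, 12.02, 11.95 and 11.96 and then 12.18, 12.23, 12.17 and 12.15 in WT. *Txnip* overlapped at 3 hr and was apart at 6 hr, with a difference of 0.25 ± 0.054 (adjusted p = 0.0432) that was not called without 7 of the 8 mice, up to an adjusted p of 0.17, while *Ptgs2* was not called without 5. These 3 genes are the called ones among 18 that the study names for these cells. The study named them from several experiments, the RNA sequencing of these samples among them, so the list is no independent evidence. Of the 18, 8 rose and 6 fell in *Cpeb4*-/-. *Il10*, the main anti-inflammatory cytokine, fell by 0.93 in *Cpeb4*-/- and by 0.38 in WT, and *Il6* rose by 0.76 and had a change of 0.14 in WT. Neither difference was called (-0.56, adjusted p = 0.0505, and 0.63, adjusted p = 0.0859), although the genotypes did not overlap at 6 hr for either gene.

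Interferon-stimulated genes had the lower change in *Cpeb4*-/- in 20 of 30 cases and GBP and IRG GTPases in 13 of 14, against 55.7% of all genes tested, with median differences of -0.06 and -0.15. After quantile normalization 14 of the 30 interferon-stimulated genes and 4 of the 14 GTPases had the higher change, against 6541 of all 13070 genes. The median differences of the 2 lists were then -0.01 and -0.08. A single gene of both lists was called. *Stat2*, a transcription factor of interferon signalling, rose by 0.53 in *Cpeb4*-/- and by 0.84 in WT (-0.31, adjusted p = 0.0324), a call lost after quantile normalization and without 5 of the 8 mice, at adjusted p-values up to 0.13. The immediate early gene *Egr1* rose by 1.50 and 0.92, a difference of 0.58 (adjusted p = 0.0405) that was lost on leaving out any mouse other than WT mouse 88, at adjusted p-values up to 0.10. Cell cycle, ribosome biogenesis, lysosome, antigen presentation, stress response and poly(A) and mRNA decay lists had no member with a called difference in the limma fit. At an unadjusted p under 0.05 there were 5 of 26, 3 of 22, 3 of 24, 1 of 20, 5 of 20 and 10 of 32, and 2366 of all genes (18.1%). Their median differences were between -0.12 and 0.07, the lowest being that of the poly(A) and decay factors, for which 23 of 32 had the lower change in *Cpeb4*-/-.

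**Figure D4:**
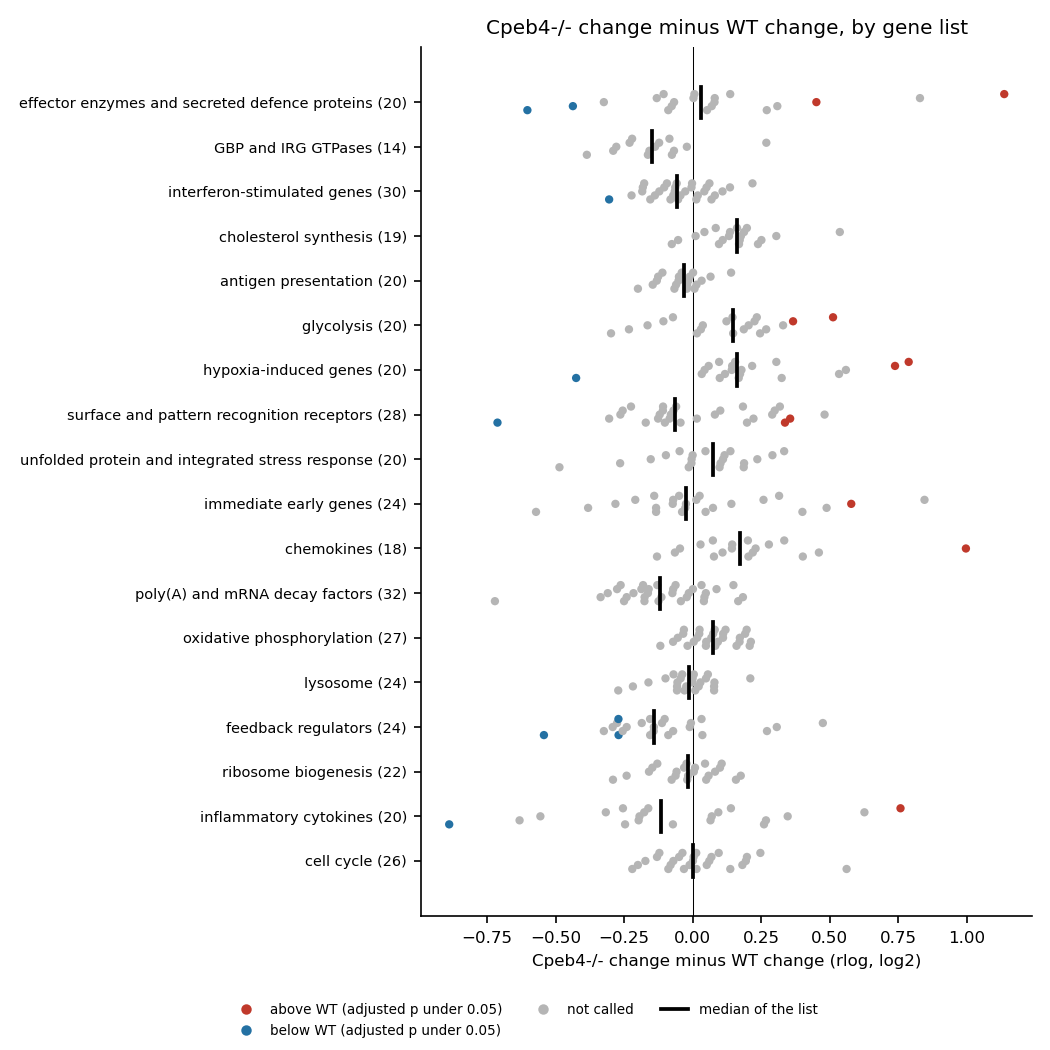
Each point is the *Cpeb4*-/- change minus the WT change of 1 gene (x axis, rlog, log2), by gene list, with the number of genes tested in parentheses; bars are list medians and colours mark called differences. The hypoxia and glycolysis medians lie at 0.16 and 0.15 and the feedback median at -0.14, and few single genes pass the test.

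The same genes were followed to the times outside this interval, for which no test was made. *Slpi* was already higher in *Cpeb4*-/- without LPS, at 5.35 ± 0.19 against 4.66 ± 0.30 (SD, n = 4), and remained higher at 9 hr, at 9.21 ± 0.14 against 7.94 ± 0.31. *Cxcl3* began level, at 7.57 ± 0.05 and 7.49 ± 0.02, and stood at 10.54 ± 0.47 against 9.03 ± 0.48 at 9 hr. *Bnip3* at 9 hr was at 10.32 ± 0.13 against 9.88 ± 0.20, *Hk2* at 12.20 ± 0.12 against 11.79 ± 0.10 and *Txnip* at 12.72 ± 0.10 against 12.39 ± 0.03, so their gaps of 6 hr persisted. *Fcrl5* also kept its gap, at 3.20 ± 0.25 against 4.12 ± 0.23. By contrast *Nos2* at 9 hr was at 12.43 ± 0.41 and 12.33 ± 0.50, *Dusp1* at 12.05 ± 0.11 and 12.23 ± 0.21 and *Tnfsf18* at 3.30 ± 0.22 and 3.67 ± 0.16, closer together than at 6 hr.

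**Figure D5:**
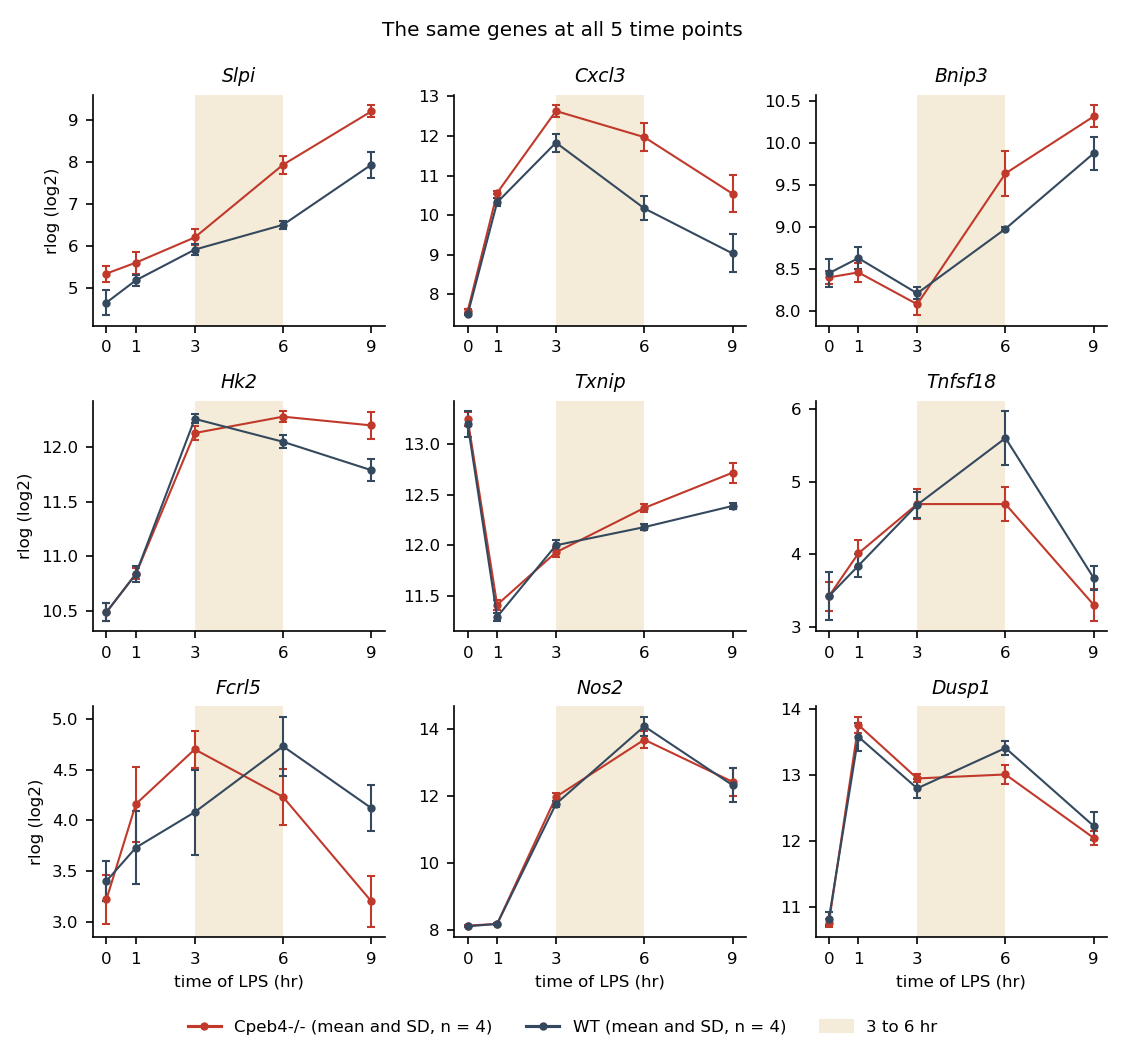
Mean level (y axis, rlog, log2) with SD of 9 genes at 0, 1, 3, 6 and 9 hr of LPS (x axis) in 4 *Cpeb4*-/- (red) and 4 WT (blue) mice, with the 3 to 6 hr interval shaded. *Slpi* is already higher in red at 0 hr, with a wider gap at 6 and 9 hr. *Cxcl3* and *Txnip* are higher in red at 6 and 9 hr, and *Hk2* is lower in red at 3 hr and higher at 6 and 9 hr. The curves of *Nos2* are close again at 9 hr.

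The transcripts with a called difference were described by features the test had not used. The 113 of the 117 genes with the lower change in *Cpeb4*-/- that have an annotated 3′UTR had a median transcript of 4558 bases and a median 3′UTR of 1774 bases, against 3026 and 1139 over all tested genes. For 68 of the 69 with the higher change the medians were 2625 and 1181. CPEs were present in 77% of the 3′UTRs of genes with the lower change and in 75% of those with the higher, and in 61.8% of all tested. Per kb of 3′UTR they occurred 1.29 times with the lower change and 1.64 times with the higher, against 1.31 over all tested. The further CPE variants that the study counted were not searched. The pentamer ATTTA, the core of AU-rich elements, occurred 2.43 and 2.36 times per kb against 1.78. Genes that rose or fell in *Cpeb4*-/- as a whole were close to the average, with CPEs in 64.7% and 62.1%. The letters ACGTG were in 38.5% of 52 promoters of genes with the higher change and in 25.8% of 93 with the lower change, against 29.1% of all. These shares are given without a test, and longer 3′UTRs hold more motifs of any kind. Of the 186 genes, 15 (8.06%) lay on chromosome 11, which carries *Cpeb4* and holds 8.29% of the tested genes. None of the 56 tested genes within 10 Mb of *Cpeb4* was called in the limma fit, where 1.42% of all genes were, a rate at which 56 genes are too few to read a share from. Of the 56, 14 had an unadjusted p under 0.05, against 18.1% of all genes.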

How the data were processed

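BMDMs of 4 *Cpeb4*-/- and 4 WT mice at 3 and 6 hr of LPS were used. The libraries were poly(A)-selected. The authors aligned reads with STAR 2.3.0e to mm10, counted them per gene with featureCounts and deposited rlog values (DESeq2, log2 scale); the counting strand is not given in the sources used here, so overlapping and antisense genes cannot be told apart from their partners. Levels ran from -2.40 to 19.39, with 6395 genes at 0 in all 40 libraries and 958 entries without a matched symbol.

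The 13070 genes whose rlog averaged log2 of 5 or more over the 16 libraries were fitted in R 4.3.3 by limma 3.58.1, using lmFit and a trended eBayes, with each mouse as a fixed block; 6 residual degrees of freedom were joined by 6.63 prior ones, and p-values were adjusted by Benjamini-Hochberg. The replicate number is the animal, and the pairing was checked: deviations of a mouse's 3 and 6 hr libraries from the group means correlated at 0.158 to 0.301 in all 8 mice. The median SE was 0.0666 for a *Cpeb4*-/- change and 0.0942 for a difference of changes. Single genes were tested by a two-sided exact permutation of per-mouse changes.

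The members, the 19 gene lists and the tests were chosen with earlier results of these data known. Genes were named by a rule: the 10 largest called rises and falls without overlap of the times, the 10 most positive and negative called differences without overlap of the mice, list members with the largest change or a called difference, and genes the study names. Alternatives were other filters, eBayes without trend or robust, other uses of the mouse, all 40 libraries, batch terms, each batch alone, quantile normalization, a stricter threshold and leaving out each mouse. 3′UTRs came from GENCODE M21 and promoters from RefSeq, both GRCm38. Reads and counts were not used here.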

Additional observations from a re-analysis of the deposited data

Results flagged for a closer look

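Among 580 groups of 4 libraries examined for 145 named genes, 33 values stood far from the other 3 of their group by Dixon's 95% criterion, which chance alone meets in about 1 group in 20. WT mouse 88 held 7 of them at 3 hr: *Hp* 7.23, *Wfdc21* 3.39, *Fam234b* 5.88, *Il23a* 4.87, *Pfkl* 10.78, *Cd80* 7.98 and *Il10* 11.32. It held 2 at 6 hr, *Clic5* 9.31 and *Gbp6* 11.57. *Cpeb4*-/- mouse 3 held 5 at 6 hr, *Cish* 8.26, *F3* 9.43, *Egr1* 9.17, *Ndrg1* 11.33 and *Hk2* 12.35, and 1 at 3 hr, *Il1rn* 13.95. For *F3*, *Egr1* and *Hk2* the 6 hr value was the highest of the group, on the side of the called difference. For *Ndrg1* it was the lowest, also on the side of the called difference. Without this mouse the differences of *F3* and *Ndrg1* were still called in limma (adjusted p = 0.041 for each), and those of *Egr1* (0.097) and *Hk2* (0.055) were not.

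The other values in *Cpeb4*-/- were, at 3 hr, *Rasgrp3* 8.11, *Mxi1* 9.28, *Ccna2* 10.67 and *Mrc1* 13.57 in mouse 2, *Fcrl5* 4.43, *Atp6v0d2* 11.05 and *Tlr2* 13.95 in mouse 62 and *Sdhd* 6.70 in mouse 55. At 6 hr they were *Fcrl5* 3.81 in mouse 62 and *Bahcc1* 8.08, *Ifi44* 11.94 and *Hif1a* 13.63 in mouse 55. In WT they were *Cish* 10.94, *Stat2* 13.76 and *Fpr1* 9.24 in mouse 69 at 3 hr, and *Ccl5* 16.51 in mouse 25 and *Ifi44* 12.08 and *Marco* 12.46 in mouse 87 at 6 hr.

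The change from 3 to 6 hr differed between the genotypes for 36 named genes in the limma test of the difference itself. The *Cpeb4*-/- change minus the WT change was positive for *Slpi* (1.14), *Cxcl3* (1.00), *F3* (0.86), *Bambi* (0.85), *Fam234b* (0.84), *Bnip3* (0.79), *Ifnb1* (0.76), *Tbc1d30* (0.75), *Gpr155* (0.74), *Ankrd37* (0.74), *Egr1* (0.58), *Slc16a3* (0.51), *Hmox1* (0.45), *Hk2* (0.37), *Marco* (0.36), *Tlr2* (0.34) and *Txnip* (0.25). It was negative for *Hal* (-1.18), *Fcrl5* (-1.11), *Gprc5b* (-1.01), *Siglecg* (-0.99), *Tnfsf18* (-0.92), *Csf2* (-0.89), *Irf4* (-0.81), *Fhod3* (-0.80), *Bahcc1* (-0.79), *Zbtb32* (-0.78), *Tlr9* (-0.71), *Nos2* (-0.60), *Dusp1* (-0.54), *Nav2* (-0.47), *Ptgs2* (-0.44), *Ndrg1* (-0.43), *Stat2* (-0.31), *Bcl3* (-0.27) and *Sbno2* (-0.27).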

How the results depend on the processing

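*Cpeb4*-/- macrophages had 3659 to 4668 called rises and 3642 to 4562 falls under the alternatives that kept both batches, and 2903 and 3141 in batch 1 alone. The count of called differences varied more. Above and below WT it was 3 and 4 without the filter, 1 and 0 without the trend in eBayes (782 and 1343 at unadjusted p under 0.05), 20 and 15 with no replicate block, 86 and 84 with the block as a random effect, 159 and 231 with all 40 libraries, 33 and 42 with a batch by time term, 0 and 0 in batch 1 alone (limma, 237 and 495 at unadjusted p), 3 and 6 in batch 2 alone and 2 and 3 at an adjusted p under 0.01. Without each mouse in turn it was 2 to 479 above and 3 to 787 below. The cause was not tested, beyond the fewer mice in some fits. Quantile normalization moved list medians in *Cpeb4*-/- to -0.28 (feedback), 0.68 (interferon), 0.30 (glycolysis), 0.14 (stress response), -0.45 (ribosome biogenesis), -0.18 (lysosome), 0.16 (receptors), 0.39 (antigen presentation), 0.00 (chemokines), 0.03 (poly(A) and decay factors) and, with reversed sign, -0.02 (genes the study names) and -0.09 (oxidative phosphorylation). Changes in *Cpeb4*-/- that were not called also turned sign: *Dusp1* to -0.12 and *Cpeb4* to 0.03 after quantile normalization, and without single mice *Cpeb4* (-0.20 to 0.06), *Tlr9* (-0.06 to 0.10) and *Socs3* (up to 0.03, and 0.00). Of 2485 values of 131 named *Cpeb4*-/- changes 2427 kept direction and call, and of 716 values of 36 named differences 321 did and 395 lost the call. With 4 mice per genotype and a median SE of 0.0942, small differences of changes were not detectable.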
